A study of Mus musculus with 4 samples.

Results

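Alveolar macrophages (AMs), the resident phagocytes of the air spaces, were examined in single-cell RNA-seq of whole mouse lung. AMs were selected by their own transcripts: a cell was taken when it held a UMI (unique molecular identifier, 1 captured RNA molecule) of at least 4 of the 7 genes Ear1, Marco, Atp6v0d2, Plet1, Krt79, Fabp1 and Mrc1, and no UMI of the T cell gene Cd3e, the B cell gene Cd79a or the endothelial gene Cdh5. This gave 563 AMs of 9363 cells (6.01%). All mice carried floxed Erg alleles (ERG fl/fl) and received 5 daily injections of 0.5 mg tamoxifen, with lungs taken 90 days afterwards. The 2 libraries named WT had no Cre, and the 2 libraries named ERG CKO also carried CDH5-CreER(T), a tamoxifen-inducible recombinase driven by an endothelial promoter, so that AMs were not the cells in which Erg was targeted. The labels give neither the age nor the sex of the mice. The comparison addressed whether the transcriptome of AMs differed in lungs where the endothelium was the target of recombination.

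AMs live in the alveolar lumen, clear surfactant lipids and inhaled particles, and maintain themselves largely by local division. Their identity depends on GM-CSF signalling from the epithelium and on the lipid-sensing nuclear receptor PPARγ, and in the mouse they are recognised by Siglec-F, by CD11c (Itgax) and by abundant transcripts of the chitinase-like protein Ym1 (Chil3). They are distinct from interstitial macrophages, which lie in the lung tissue near vessels and carry complement C1q.

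WT replicates 1 and 2 yielded 182 and 114 AMs and ERG CKO replicates 1 and 2 yielded 146 and 121. Total depth was between 11263911 and 18646776 UMIs per library. AMs were deep cells, with a median of 16136 UMIs against 4591.5 in all other cells, and they held 15.1% of all UMIs. No AM carried a barcode that was also present in another library, although 7 barcodes occurred in more than 1 library. Scrublet called 60 of 9363 cells doublets (0.641%), of which 2 were AMs, and these were kept. A total of 43 AMs had over 10% mitochondrial UMIs. The replicates of a group differed by more than sampling noise in their summed AM counts (chi-square per degree of freedom 2.68 in WT and 3.89 in ERG CKO). Levels are given as CPM, the UMIs of a gene per 1000000 UMIs of the cells summed. The X-inactivation transcript Xist was at 1050 CPM in AMs of WT replicate 1, at 1080 CPM in those of ERG CKO replicate 1 and at 0 in the other libraries. The Y-linked gene Ddx3y was at 119 CPM in WT replicate 2, at 126 CPM in ERG CKO replicate 2 and at 0 elsewhere. The methods name as many mice as libraries in each group, but the labels do not tie a library to a mouse, so p-values measure the spread between these libraries.

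Erg itself was near absent from AMs, with 0 and 3 UMIs in the WT libraries, then 2 and 1 in the ERG CKO libraries, in 0 of 182, 3 of 114, 2 of 146 and 1 of 121 cells. For cells with a captured UMI, 0 of 182 allows a share of up to 2.07% and 3 of 114 of up to 7.45% (upper Wilson bounds). In endothelial cells of the same libraries Erg was at 90.3 and 83.0 CPM in WT and at 101 and 83.0 CPM in ERG CKO, which overlapped. Counts per gene cannot show whether the floxed exons were missing, and directions given here are between the libraries labelled WT and those labelled ERG CKO.

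Few cells lay at the boundary of the selection. Of the cells without the excluded transcripts, 15 held 3 of the 7 genes and 23 held 4. The 15 cells just outside had a median of 1951 UMIs and a summed Chil3 level of 1376 CPM, and the 23 just inside had a median of 3111 UMIs and 22010 CPM of Chil3. A Chil3 UMI was found in 93.3% of the 15 and 100% of the 23, against 17.3% of cells with 0 of the genes. For Siglecf these shares were 13.3%, 26.1% and 0.823%. Whether the 15 cells were shallow AMs was not tested. All 7 genes were detected in 330 AMs. Another 63 cells with at least 4 of the genes were left out because of a Cd3e, Cd79a or Cdh5 UMI.

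The genes used for selection were Ear1 (an eosinophil-associated ribonuclease), Marco (a class A scavenger receptor), Atp6v0d2 (a subunit of the lysosomal proton pump), Plet1 (a surface protein also of progenitor epithelium), Krt79 (a keratin), Fabp1 (a fatty acid binding protein) and Mrc1 (the mannose receptor CD206). As they chose the cells, their levels are a description. Detection ranged from 75.0% of AMs for Marco to 98.9% for Plet1. Ear1 was at 845 and 1076 CPM in WT and at 1131 and 1315 CPM in ERG CKO, and at 17.9 to 25.5 CPM in the other cells of the same libraries. Marco was at 529 and 759 CPM in WT and at 661 and 710 CPM in ERG CKO. Thus the libraries overlapped for Marco and not for Ear1, for which no test is given. Interstitial macrophages, defined by C1q transcripts and by too few of the selection genes to count as AMs, held Mrc1 at 524 CPM. They had no UMI of Ear1, Marco, Krt79 or Fabp1, which is partly set by that definition. On GRCm38, Ear1 lies at chr14:43818765-43875517, Marco at chr1:120474538-120505024 and Fabp1 at chr6:71199827-71205023 in the GENCODE M21 annotation.

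Promoter sequences were read for the 25 genes with the highest fold in AMs over other cells, all 7 selection genes among them, to show what lies upstream of transcripts that are abundant in the same cells. Of these 25 genes, 21 had an entry in the RefSeq table (GRCm38.p6). Starts are those of RefSeq and can differ from the GENCODE M21 bounds given above. The Ear1 stretch lies inside its GENCODE gene, and the Fabp1 stretch runs past its GENCODE start. In the 250 bases before the start, the C/EBP letters TTGCNNAA occurred on either strand in 5 of 21 genes (23.8%) against 9.56% of 32851 promoters, the AP-1 letters TGANTCA in 3 (14.3% against 6.75%), the E-box CACGTG in 1 (4.76% against 6.02%) and the PU.1 letters GAGGAAGT in 0 (against 2.44%). The 5 genes with TTGCNNAA are shown, 5′ to 3′ on the strand of the gene, with matches to TTGCNNAA in capitals and, in Plet1, also the match to TGANTCA: Ear1 (chr14:43819640-43819889, minus strand), its paralog Ear2 (chr14:44102404-44102653, plus strand), Fabp1 (chr6:71199629-71199878, plus strand), Plet1 (chr9:50494275-50494524, plus strand) and Ctsk (chr3:95498960-95499209, plus strand).
Ear1: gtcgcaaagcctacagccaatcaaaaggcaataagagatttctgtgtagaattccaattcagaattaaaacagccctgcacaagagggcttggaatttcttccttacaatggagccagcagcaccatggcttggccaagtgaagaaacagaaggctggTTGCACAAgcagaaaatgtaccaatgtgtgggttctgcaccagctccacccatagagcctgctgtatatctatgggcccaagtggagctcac
Ear2: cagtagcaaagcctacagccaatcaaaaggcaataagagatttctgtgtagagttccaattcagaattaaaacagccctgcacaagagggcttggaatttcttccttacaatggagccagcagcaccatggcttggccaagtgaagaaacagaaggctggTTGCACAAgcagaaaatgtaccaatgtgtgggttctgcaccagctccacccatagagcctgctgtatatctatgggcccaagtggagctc
Fabp1: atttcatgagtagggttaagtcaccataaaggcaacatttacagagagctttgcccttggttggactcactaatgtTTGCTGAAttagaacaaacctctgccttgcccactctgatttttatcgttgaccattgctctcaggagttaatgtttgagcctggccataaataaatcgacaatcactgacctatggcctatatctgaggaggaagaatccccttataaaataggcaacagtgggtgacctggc
Plet1: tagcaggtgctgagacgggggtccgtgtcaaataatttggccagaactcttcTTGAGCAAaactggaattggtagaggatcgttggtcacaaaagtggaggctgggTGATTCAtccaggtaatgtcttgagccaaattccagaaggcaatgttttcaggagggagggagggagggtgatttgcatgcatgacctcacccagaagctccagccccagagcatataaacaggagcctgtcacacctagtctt
Ctsk: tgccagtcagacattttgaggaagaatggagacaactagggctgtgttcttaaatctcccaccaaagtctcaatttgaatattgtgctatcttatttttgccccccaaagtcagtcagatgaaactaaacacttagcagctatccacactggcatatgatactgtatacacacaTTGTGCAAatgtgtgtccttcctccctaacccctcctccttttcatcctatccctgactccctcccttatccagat
The Ear1 and Ear2 sequences were identical at 246 of 248 aligned bases (99.2%) after a shift of 2 bases, so their matches are not separate occurrences. A match describes letters and not binding. The 2 ribonuclease transcripts also shared sequence: 23.8% of the 50-base words of Ear1 transcripts occurred in Ear2, and counts of the pair may therefore be split with error.

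Beyond the selection genes, Chil3 had the highest fold over other cells, at 13473 and 14609 CPM in WT AMs, 13126 and 16908 CPM in ERG CKO AMs and a mean of 395.8 CPM in the other cells (fold 35.8 with 10 CPM added to both). Cidec, which coats lipid droplets, was at 338 to 399 CPM in the 4 libraries (fold 20.2). Abcg1, a cholesterol exporter, was at 1339 to 1579 CPM (fold 19.2), and Olr1, a receptor for oxidised lipoprotein, had a fold of 15.8. Proteolysis and mediator genes included Ctsk (cathepsin K, fold 18.8), Il18 (a cytokine of the IL-1 family, 18.4), Ltc4s (leukotriene C4 synthase, 18.3), F7 (coagulation factor VII, 18.1) and Ccl6 (a chemokine, 16.8). Axl, a receptor for apoptotic cells, had a fold of 15.7 and Clec4n (Dectin-2, which binds fungal mannans) of 13.7. The remaining leading genes were Hebp1, Slc7a2, Ear2, Ms4a8a, Dmxl2, Gal and Kcnn3, with folds between 13.2 and 20.5. Over other mononuclear phagocytes alone (cells with monocyte or interstitial macrophage transcripts) some folds were smaller and others larger. They were 6.89 for Clec4n, 6.97 for Ccl6 and 5.27 for Ear2, but 35.2 for Cidec and 34.6 for Ctsk. Interstitial macrophages held Axl at a mean of 214 CPM and Clec4n at 202 CPM, against 573 and 413 CPM in AMs. All these folds are descriptive because the cells were chosen by transcripts.

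**Figure D1:**
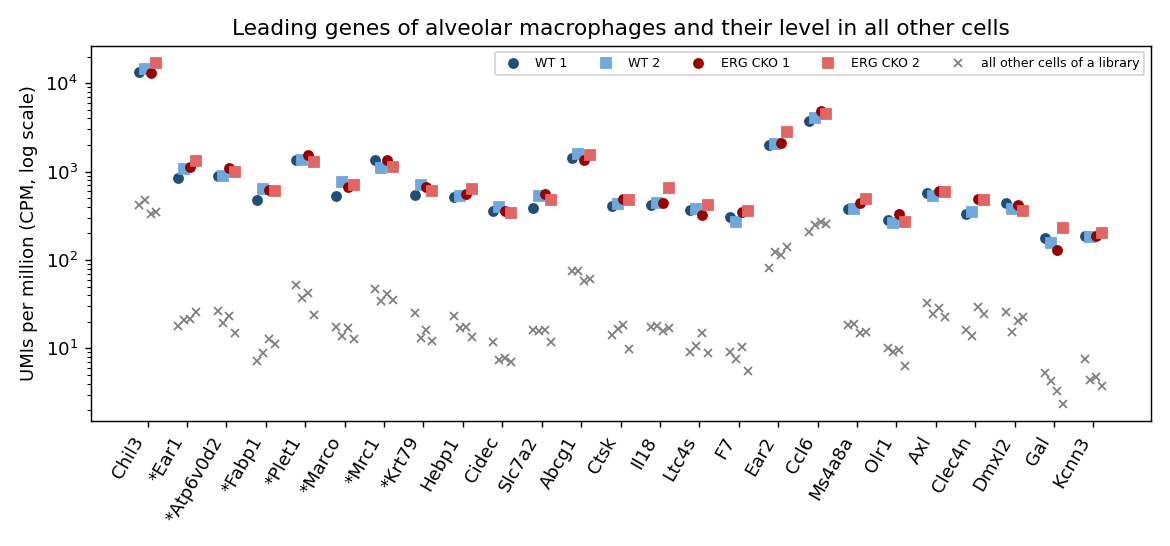
Level of the 25 leading genes in AMs of each library (coloured points) and in all other cells of each library (grey crosses), in CPM on a log axis, with genes used for selection marked by an asterisk. In every gene shown the 4 AM values lie above the 4 values of other cells; for Chil3 they run from 13126 to 16908 CPM against a mean of 395.8 CPM in other cells.

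The label was checked against markers that did not enter the selection. Siglecf was detected in 75.7% of AMs, at 143 and 137 CPM in WT and 148 and 129 CPM in ERG CKO, against a mean of 3.91 CPM in other cells. Of 20 further AM genes, 19 were at least 2-fold higher in AMs than in all other cells, the exception being Car4 (fold 1.43). The list summed to 47046 to 56897 CPM in AMs and to 17874 CPM in other mononuclear phagocytes. Lyz2 did not set WT AMs apart from those cells (19717 and 19900 against 19999 and 21091 CPM in WT). Fabp4 was at 230 to 378 CPM in AMs and 236.6 CPM there. Pparg was at 213 to 245 CPM and Itgax at 359 to 450 CPM. Of 12 interstitial macrophage genes, 11 were lower in AMs than in other cells, the exception being Cd14, a co-receptor for lipopolysaccharide, at 265 to 399 CPM. The summed level of the list was 482 and 478 CPM in WT AMs and 470 and 333 CPM in ERG CKO AMs, against 1505 to 2394 CPM in the other cells. Folr2 had no UMI in any AM, Cd163 was detected in 0.178% of AMs and C1qa, C1qb and C1qc each in under 1% (0.355%, 0.888% and 0.888%). The monocyte gene Ly6c2 was found in 1.78% of AMs. The markers fitted the label in all 4 libraries.

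Within the fatty acid binding protein family, Fabp1, Fabp4 and Fabp5 were found in 85.8%, 63.4% and 85.6% of AMs, whereas Fabp3 and Fabp7 were each in under 1% (0.178% and 0.710%) and Fabp2, Fabp9 and Fabp12 had no UMI in an AM. Fabp1 was almost absent from other mononuclear phagocytes (0.372 CPM), but Fabp4 was at 236.6 CPM there and Fabp5 at 54.9 CPM. The low Fabp1 level is partly set by definition, because Fabp1 is a selection gene and cells with enough of those genes counted as AMs. Of the chitinase-like genes, Chil3 was in all AMs (100%) and Chil1, Chil4 and Chil6 in 2.84%, 0.533% and 0.178%. Chil3 and Chil4 share sequence (16.9% of the 50-base words of Chil3), so the few Chil4 counts are uncertain.

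Variation among AMs was measured at a fixed depth. Each AM was thinned to 2000 UMIs, which left out 16 shallower cells, and the variance over the mean (Fano factor, near 1 for counting noise alone) was averaged over libraries for 4056 genes. Its median was 1.04 and 66 genes exceeded 2. The highest values were those of Gm42418 (53.9), a locus that overlaps ribosomal RNA sequence, of the nuclear RNA Malat1 (29.1) and of mt-Atp6 (26.1). Among messenger RNAs of secreted or cytoplasmic proteins, Lyz2 (lysozyme, 13.5), Chil3 (10.6), Tmsb4x (9.61), Cxcl2 (7.94), Fth1 (7.92) and Ftl1 (7.16) varied most. Cxcl2, a neutrophil-attracting chemokine, was unevenly spread: it had a UMI in 61.6% of 547 thinned AMs, the median AM held 1 UMI and the highest AM 29. The ferritin genes Fth1 and Ftl1 varied together (Pearson r = 0.60 across 547 cells) and opposite to mt-Co3 (r = -0.39 and -0.41). At a fixed depth a cell with more mitochondrial UMIs has fewer of all others, so these correlations across cells are descriptions.

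The share of AMs among all cells was then compared between groups. It was 8.04% (95% Wilson interval 6.99 to 9.23) and 5.30% (4.43 to 6.33) in WT and 4.71% (4.02 to 5.52) and 6.53% (5.50 to 7.75) in ERG CKO. The groups overlapped, and the difference of -1.05 points was within the spread between libraries (exact two-sided permutation test, p = 0.667; with 2 libraries against 2 the smallest possible p is 0.333). Without WT replicate 1 the difference was 0.32 points in the other direction. Depth per AM also overlapped, with medians of 17156 and 15378 UMIs in WT and 15438.5 and 15236 UMIs in ERG CKO (exact permutation test, p = 0.667). Intervals cover counting error only.

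Cycling AMs were defined by a UMI of at least 3 of 12 mitotic genes (Mki67, Top2a and others). They numbered 14 of 182 (7.69%) and 7 of 114 (6.14%) in WT and 5 of 146 (3.42%) and 4 of 121 (3.31%) in ERG CKO. Both ERG CKO shares lay below both WT shares, by 3.55 points on average, with the smallest p that this design allows (exact two-sided permutation test, p = 0.333), and the Wilson intervals of the libraries overlapped. After thinning to 2000 UMIs the shares were 5.62% and 2.73% for WT libraries, with ERG CKO at 2.17% and 2.48%. The same call was met by 2.19%, 3.36%, 2.42% and 1.26% of T cells in the 4 libraries, at lower depth (medians of 6209.5 to 6582 UMIs). Cycling AMs were deeper than the others (medians of 17842 to 28720.5 against 15017 to 16814 UMIs).

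**Figure D2:**
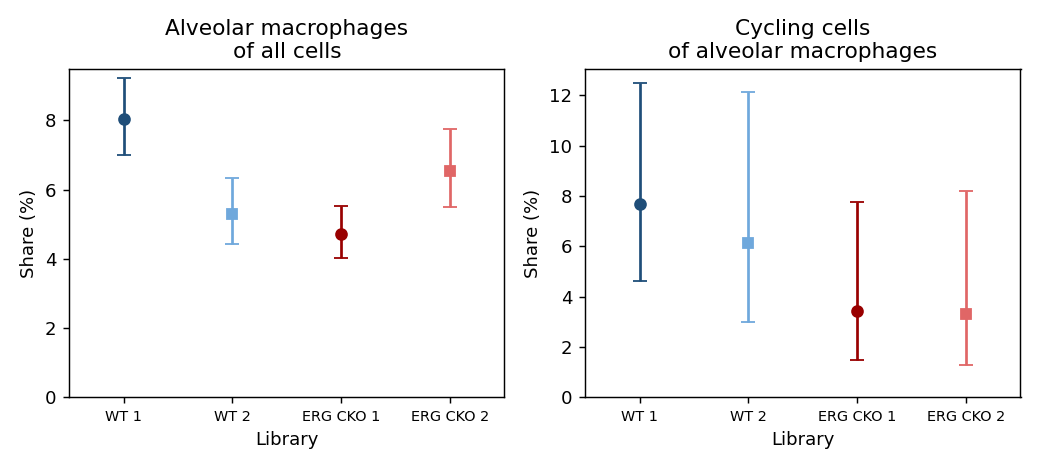
Share of AMs among all cells (left) and of cycling cells among AMs (right) in each library, in percent, with 95% Wilson intervals as bars. AM shares overlap between groups (4.71 to 8.04%), while the cycling shares of WT (7.69 and 6.14%) lie above those of ERG CKO (3.42 and 3.31%) with overlapping intervals.

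Gene expression in AMs was compared between groups on counts summed per library (edgeR quasi-likelihood test, 9112 genes tested). The chemokine gene Ccl4 was the only gene that passed an adjusted p of 0.05, and it rose in ERG CKO. Thus 1 gene of 9112 was called higher (0.011%) and 0 lower (0%), against 537 genes at an unadjusted p under 0.05 by edgeR (274 higher and 263 lower). DESeq2 called 2 genes higher, Ccl4 and Id2, and 0 lower, with 148 genes at an unadjusted p under 0.05. With the replicate number as a block, which coincided with the presence of Xist or of Ddx3y, edgeR called 23 genes higher and 10 lower. Calls given below are without this block unless it is named.

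Ccl4 encodes MIP-1β, a chemokine that attracts monocytes and T cells (chr11:83662584-83664683, plus strand, GRCm38). It was at 22.4 and 15.8 CPM in WT AMs and at 77.9 and 63.9 CPM in ERG CKO AMs, from 69, 26, 167 and 121 UMIs. Both ERG CKO libraries lay above both WT libraries (log2 fold change 1.86, SE 0.21, adjusted p = 0.0165, edgeR). The transcript was found in few cells: 24 of 182 (13.2%) and 17 of 114 (14.9%) WT AMs and 29 of 146 (19.9%) and 24 of 121 (19.8%) ERG CKO AMs, with overlapping Wilson intervals. At 2000 UMIs per cell these shares were 4.49% and 2.73% for WT libraries, with ERG CKO at 10.1% and 7.44%. The 5 AMs with the most Ccl4 held between 53.8% and 75.2% of its UMIs in a library, and without those 5 cells the levels were 10.4 and 7.75 CPM in WT and 37.0 and 16.8 CPM in ERG CKO. In endothelial cells, which should lack the gene, a Ccl4 UMI was found in 1.63% and 2.79% of those from WT lungs, and in 1.05% and 1.18% of those from ERG CKO lungs (median depths 3922.5 to 4806.5 UMIs), at 3.14 and 65.0 CPM in WT and 3.47 and 2.34 CPM in ERG CKO. The level in WT replicate 2 AMs was therefore below that of endothelial cells of the same library. Ccl4 was called in 15 of 18 alternatives (adjusted p from 1.25e-15 to 0.292). It did not pass with at least 3 selection genes (adjusted p = 0.0835, edgeR), after thinning (0.292) or without cycling AMs (0.153), and the log2 fold change was 1.69 to 2.17 throughout.

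Ccl3, the neighbouring gene for MIP-1α, did not follow Ccl4 in AMs. It was at 186 and 203 CPM in WT and at 249 and 85.5 CPM in ERG CKO (adjusted p = 0.981, edgeR), with overlapping groups. Cxcl2 was at 1878 and 1788 CPM in WT and 2351 and 1115 CPM in ERG CKO. Tnf, Il1b and Il6 overlapped between the groups as well. In all, 18 of 26 cytokine and chemokine genes were tested, Ccl4 was called, and the median log2 fold change of the tested genes was 0.021 against -0.0015 over all genes.

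**Figure D3:**
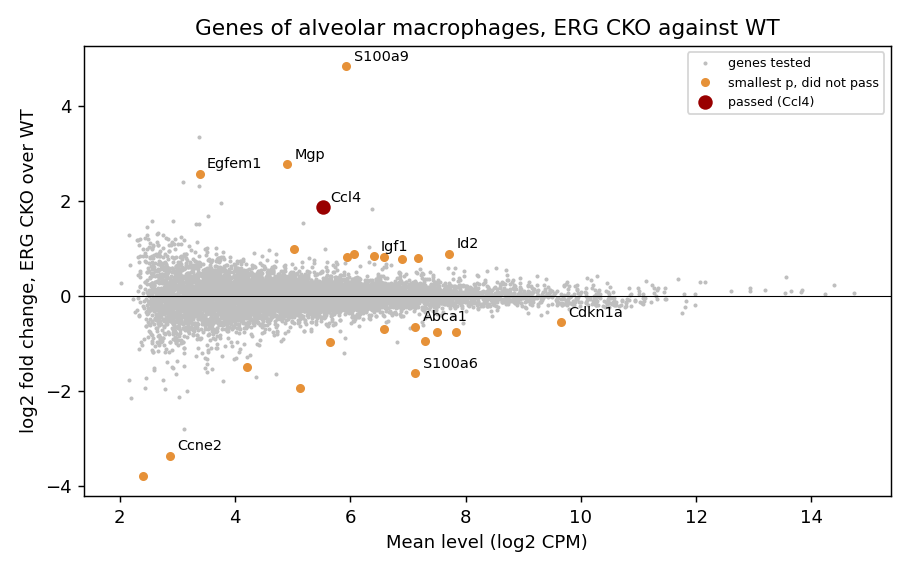
log2 fold change of each tested gene in AMs (ERG CKO over WT, vertical) against its mean level (log2 CPM, horizontal). Ccl4 (dark red, 1.86) is the gene that passed, and orange points mark the genes of smallest p that did not, such as S100a9 and S100a6.

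The genes with the next smallest p are given as values, because none of them passed the main test. On the side of higher values in ERG CKO these were Nav2, Id2, Egfem1, Gm10116, Mgp, Clec2d, Slc39a2, Acp5, Igf1, S100a9 and Cd300a, and both ERG CKO libraries lay above both WT libraries for each. Across all tested genes this pattern was met by 1429 genes (15.7%), and the opposite pattern by 1748 (19.2%). With the replicate block, Nav2, Id2, Egfem1, Gm10116, Mgp, Clec2d, Slc39a2, Acp5 and S100a9 passed (adjusted p from 0.0020 to 0.046, edgeR). Igf1 and Cd300a did not pass with it. Egfem1, which encodes an EGF-like domain protein, had at most 0.637 CPM in other mononuclear phagocytes, T cells and endothelial cells. It was found in 5 of 182 and 7 of 114 WT AMs and in 30 of 146 and 22 of 121 ERG CKO AMs, at 1.62 and 4.87 CPM in WT and 18.2 and 15.3 CPM in ERG CKO. The difference was 2.57 on the log2 scale (SE 0.45) and did not pass (adjusted p = 0.194, edgeR). Id2, an inhibitor of basic helix-loop-helix factors, was at 145 and 150 CPM in WT and 311 and 227 CPM in ERG CKO (log2 fold change 0.89, SE 0.15, adjusted p = 0.194 in edgeR and 0.0333 in DESeq2). Acp5, a lysosomal acid phosphatase, was at 106 and 104 CPM in WT and at 148 and 210 CPM in ERG CKO.

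On the side of lower values were S100a6, Nr4a3, Banp, Ccne2, Abca1, Cdkn1a, Brip1, Mfsd6, Hcar2, S100a4, Atad2 and Tppp3, again without overlap of the groups. With the replicate block, S100a6, Nr4a3, Banp, Ccne2, Abca1, Cdkn1a, Mfsd6 and Tppp3 passed (adjusted p from 0.0065 to 0.047, edgeR). Brip1, Hcar2, S100a4 and Atad2 did not pass with it. S100a6, a calcium-binding protein abundant in monocytes, was at 273 and 139 CPM in WT and at 62.5 and 70.8 CPM in ERG CKO (log2 fold change -1.63, SE 0.25, adjusted p = 0.191, edgeR). It passed in 7 of 18 alternatives. Without WT replicate 1 the S100a6 log2 fold change was -1.05. The monocyte list was low in AMs as a whole (summed level 582 and 597 CPM in WT and 557 and 482 CPM in ERG CKO), and its part in S100a6 was not tested. Abca1, which exports cholesterol under LXR control, was at 167 and 172 CPM in WT and at 98.9 and 115 CPM in ERG CKO (log2 fold change -0.65, SE 0.13, adjusted p = 0.266, edgeR). Cdkn1a, the cell cycle inhibitor p21, was at 964 and 960 CPM in WT and at 651 and 647 CPM in ERG CKO (log2 fold change -0.55, SE 0.11, adjusted p = 0.266, edgeR). Ccne2, Brip1 and Atad2, which act around DNA replication, were also among these genes. Ccne2 was at 14.6 and 5.47 CPM in WT and at 0.933 and 1.06 CPM in ERG CKO.

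**Figure D4:**
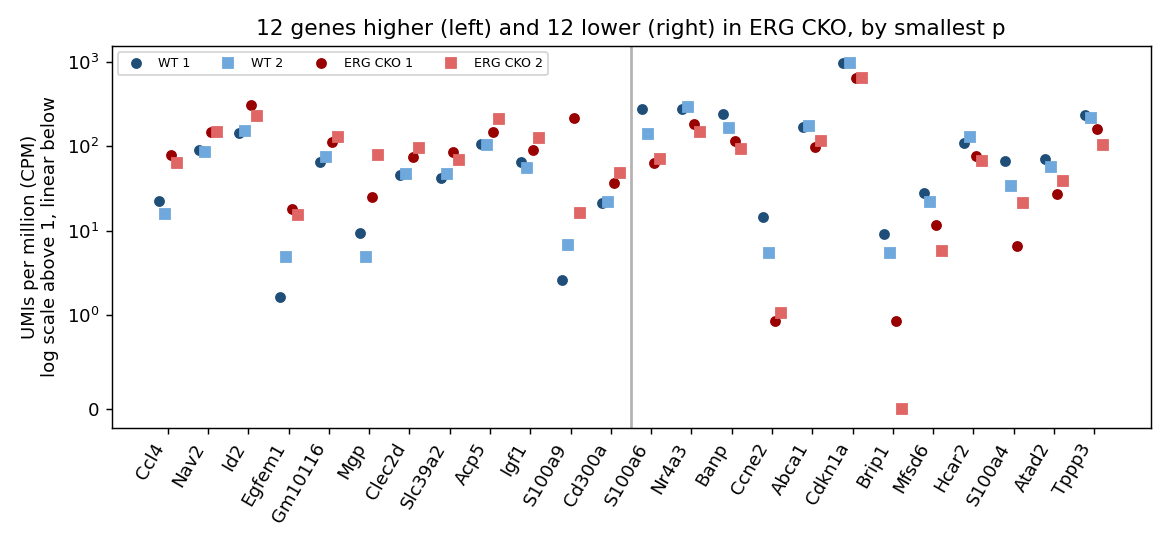
Level in AMs of each library (CPM, log scale above 1 and linear below) of the 12 genes with the smallest p on the higher side (left of the line) and the 12 on the lower side (right). Ccl4 alone passed the test; groups do not overlap in any gene shown, and S100a9 in ERG CKO replicate 1 (213 CPM) stands far above its partner (16.4 CPM).

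The mediators S100a9, Igf1, Ccl6 and Mmp9, which the study named for lung immune cells, were examined in AMs. They were chosen on these samples, so their direction is not independent evidence, and 0 of the 3 that could be tested passed. Igf1, a growth factor, was at 64.9 and 55.4 CPM in WT and at 91.0 and 124 CPM in ERG CKO (log2 fold change 0.84, SE 0.18, adjusted p = 0.266, edgeR). An Igf1 UMI was found in 30.2% and 29.8% of WT and in 47.9% and 51.2% of ERG CKO AMs, in at most 0.548% of T cells, and in 1.63% and 0.127% of endothelial cells from WT lungs, then 7.17% and 4.57% of those from ERG CKO lungs (median depths 3922.5 to 4806.5 UMIs). In endothelial cells Igf1 was at 4.45 and 0.261 CPM in WT and at 25.2 and 31.1 CPM in ERG CKO, the same direction as in AMs, and the part of RNA from other cells in the AM values was not tested. Interstitial macrophages held Igf1 at 131 to 205 CPM, with overlapping groups. After thinning these shares were 6.74% and 11.8% for WT libraries, with ERG CKO at 19.6% and 16.5%. Ccl6 was at 3710 and 4035 CPM in WT and at 4875 and 4512 CPM in ERG CKO (log2 fold change 0.29, SE 0.10, adjusted p = 0.672, edgeR). For both genes the ERG CKO libraries lay above the WT libraries by less than the test required.

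S100a9, a neutrophil alarmin, owed the size of its change mostly to 1 cell. It was at 2.60 and 6.69 CPM in WT and at 213 and 16.4 CPM in ERG CKO (log2 fold change 4.83, SE 1.02, adjusted p = 0.266, edgeR). Of the 457 UMIs of ERG CKO replicate 1, 428 came from a single AM. That cell held all 7 selection genes, 15919 UMIs in total and 912 UMIs of the neutrophil list, and it was not called a doublet. Without it the library was at 13.6 CPM and the log2 fold change was 1.86 (adjusted p = 0.318, edgeR). The neutrophil list as a whole was at 67.2 and 78.5 CPM in WT AMs and at 539 and 113 CPM in ERG CKO AMs, or 115 CPM in ERG CKO replicate 1 without its highest cell, while in all other cells it was at 1284 and 2479 CPM in WT and 3467 and 4993 CPM in ERG CKO. The part of the neutrophil transcripts of other cells in these AM values was not tested. Mmp9 had no UMI in WT AMs or in ERG CKO replicate 2, and 14 of its 15 UMIs in ERG CKO replicate 1 came from 1 cell. Mgp likewise had 137 of its 151 UMIs in ERG CKO replicate 2 in 1 AM, and was at 7.44 CPM there without that cell.

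Gene lists were described by the number of members whose groups did not overlap, beside the 15.7% and 19.2% of all tested genes. Of the 20 further AM genes, 0 were called, 10 were higher in both ERG CKO libraries and 0 lower, with a median log2 fold change of 0.19. These included Fabp4 (270 and 230 CPM in WT, 378 and 289 CPM in ERG CKO), Fabp5 (642 and 530 CPM in WT, 662 and 829 CPM in ERG CKO), F7 and Lyz2. Of the antioxidant genes, 0 of 22 were called, 10 lay higher in both ERG CKO libraries and 0 lower, and the median was 0.20. Gstm1, a glutathione transferase, was at 305 and 285 CPM in WT and at 405 and 472 CPM in ERG CKO, and Txnrd1, thioredoxin reductase, at 142 and 157 CPM in WT and 209 and 179 CPM in ERG CKO. The medians of both lists stayed above 0 in every alternative (0.15 to 0.23 and 0.15 to 0.24).

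Genes of the endolysosome and of surfactant catabolism had a smaller median (0.046, 33 tested, 0 called), with 12 higher and 3 lower without overlap. Psap, the saposin precursor, was at 2868 and 2945 CPM in WT and at 3656 and 3671 CPM in ERG CKO, and Ctsd, cathepsin D, at 4096 and 4114 CPM in WT and 4942 and 4942 CPM in ERG CKO (adjusted p = 0.483 and 0.646, edgeR). Scavenger and phagocytosis genes had a median of 0.14 (7 higher and 3 lower of 20), lipid uptake and storage genes of 0.097 (5 and 2 of 23) and heme and iron genes of 0.070 (5 and 4 of 15). In the last list Ftl1, ferritin light chain, was at 9908 and 10966 CPM in WT and at 12907 and 14254 CPM in ERG CKO (adjusted p = 0.354, edgeR). None of these genes passed the main test. With the replicate block, Ftl1, Psap and Ctsd did (adjusted p = 0.0012, 0.019 and 0.031, edgeR).

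Sterol efflux and LXR-linked genes, taken as 1 list, had a median of -0.053 and 5 of 14 lower without overlap against 1 higher. Besides Abca1 these were Apoe (59.4 and 108 CPM in WT, 20.1 and 50.2 CPM in ERG CKO), Srebf1, Scd1 and Scd2, while Abcg1 overlapped. Srebf1, Scd1 and Scd2 do not encode exporters, so the lower genes are not all efflux genes. Sterol synthesis genes had 5 of 18 lower and 1 higher, with a median of -0.029 that changed sign in 6 alternatives (-0.18 to 0.20). Immediate early and heat shock genes had 7 of 24 lower and 0 higher (median -0.13), and Jun was at 245 and 254 CPM in WT and 163 and 211 CPM in ERG CKO. NF-κB target genes had a median of 0.20 with 3 of 16 higher and 0 lower, which turned to -0.016 in 1 alternative. In all of these lists 0 genes were called.

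Of 21 cell cycle genes tested, 0 were called, 7 were lower without overlap and 0 higher, and the median log2 fold change was -0.58. Mki67 was at 88.6 and 62.0 CPM in WT and at 32.7 and 49.1 CPM in ERG CKO. The replication genes Mcm5 (21.7 and 21.9 CPM in WT, 10.3 and 9.50 CPM in ERG CKO) and Tk1 (24.7 and 11.6 CPM in WT, 4.2 and 6.86 CPM in ERG CKO) lay lower, whereas Ccnb1, Cdk1 and Ube2c, which act in mitosis, overlapped. Over the alternatives the median ran from -0.97 to -0.052. Leaving out WT replicate 1 brought it to -0.066, leaving out ERG CKO replicate 1 to -0.25 and leaving out cycling AMs to -0.052. The genes that call cycling AMs are on this list, so leaving those cells out moves the median by construction.

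Regulators of AM identity showed no common direction, with 6 higher and 4 lower of 23 and a median of 0.011. Pparg was at 214 and 213 CPM in WT and at 245 and 238 CPM in ERG CKO (adjusted p = 0.902, edgeR), and the GM-CSF receptor subunits Csf2ra and Csf2rb overlapped. Csf1r, the receptor for M-CSF, was at 80.5 and 74.8 CPM in WT and at 101 and 94.0 CPM in ERG CKO (adjusted p = 0.778, edgeR). Interferon response genes (3 higher and 2 lower of 14, median 0.17), MHC class II genes (0 and 3 of 9, median 0.17), complement genes (2 and 0 of 4, median 0.24), receptors for interferon gamma and Toll-like ligands (3 and 4 of 12, median -0.052) and genes linked to profibrotic macrophages (3 and 0 of 17, median 0.055) had 0 calls. All but the profibrotic median changed sign in some alternative. They reached -0.13 for interferon response, -0.23 for MHC class II, -0.080 for complement and 0.24 for the receptors. Spp1, osteopontin, was at 493 and 456 CPM in WT and 604 and 354 CPM in ERG CKO.

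**Figure D5:**
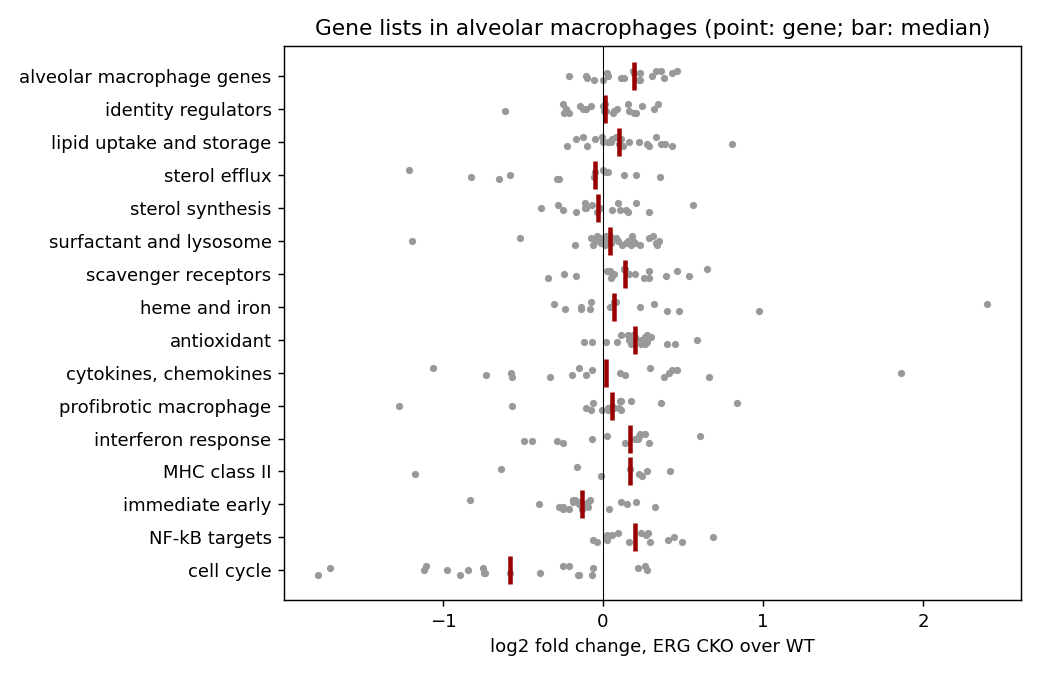
log2 fold change in AMs (ERG CKO over WT) of the tested members of 16 gene lists, with each gene as a grey point and the list median as a red bar. Most medians lie within 0.20 of 0, and the cell cycle list is at -0.58.

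To ask whether the changes were particular to AMs, the change between groups was compared with that in other mononuclear phagocytes (836 cells with monocyte or interstitial macrophage transcripts) in 1 fit with a term per library. The change differed for 45 of 9862 genes (0.456%, edgeR, adjusted p of at most 0.05), and 717 genes had an unadjusted p under 0.05. Ccl4 was among the 45, with a difference of 1.71 on the log2 scale (SE 0.34, adjusted p = 0.0202, edgeR). In the other mononuclear phagocytes it was at 176 and 417 CPM in WT and 423 and 202 CPM in ERG CKO, which overlapped. Chil3 had the smallest p (difference 2.54, SE 0.21, adjusted p = 1.87e-07, edgeR), and here the AM values overlapped while the other phagocytes were at 452 and 856 CPM in WT and 82.5 and 170 CPM in ERG CKO. Lyz2 was lower in both ERG CKO libraries in the other phagocytes, at 19999 and 21091 CPM in WT and 10099 and 13385 CPM in ERG CKO, and higher in both in AMs, at 19717 and 19900 CPM in WT and 22255 and 23738 CPM in ERG CKO. In the other phagocytes alone 0 of 8551 genes passed the edgeR test, with 688 at an unadjusted p under 0.05, and DESeq2 was not run there. Their mix of cells differed in number between libraries: interstitial macrophages numbered 13 and 11 in WT libraries, with 38 and 16 for ERG CKO; its part in these differences was not tested. In interstitial macrophages Ccl4 was also higher in both ERG CKO libraries, at 0 and 23.1 CPM in WT and 921 and 406 CPM in ERG CKO, and Ccl4 was not among the genes whose change differed from that in these cells. Against interstitial macrophages alone 1 gene differed, Ccl3, which was at 22.7 and 38.6 CPM in WT and at 738 and 487 CPM in ERG CKO in those cells.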

How the data were processed

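The authors deposited raw UMI counts per gene and cell of whole lung, with 20076 gene rows and 9363 barcodes from 4 libraries, not normalized. The submitters' processing notes name Cell Ranger 3.1.0 and mm10. The study's methods name a quality filter without its limits, and all barcodes in the matrix were used; the study analysed fewer cells. Libraries were assigned by sample title at the start of each cell name. No authors' cell annotation was used.

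AM counts were summed per library and compared by edgeR (version 4.0.16, R 4.3.3; quasi-likelihood, TMM, filterByExpr, Benjamini-Hochberg adjusted p of at most 0.05; SE is the log2 fold change over the square root of F), and shares with exact permutation tests (scipy 1.17.1). Other mononuclear phagocytes held at least 3 of 11 monocyte and macrophage genes and too few of the selection genes to count as AMs. AM total counts were 1643955 to 3082205 per library. Named genes were the called genes, those of smallest p up to 12 per direction, called list members, 4 study mediators and Erg; the 25 genes of highest fold; the 15 most variable; and up to 10 of the interaction. The cycling list holds 12 genes, where the plan counted 11 by mistake. Scripts were tested on simulated data. Alternatives included DESeq2 1.42.0, other filters, thinning and each library left out; those on neutrophil, cycling and shallow AMs were chosen after seeing the data. The members and gene lists were chosen with earlier results of these data known. Promoters are from RefSeq (GRCm38.p6) and coordinates from GENCODE M21.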

Additional observations from a re-analysis of the deposited data

Results flagged for a closer look

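The change between groups differed between AMs and other mononuclear phagocytes, by the test of the difference itself (edgeR), for 10 named genes. On the log2 scale, as the change in AMs minus that in the other phagocytes, the differences were 2.54 for Chil3, 1.09 for Lyz2, 3.68 for the mitotic gene Ube2c, -2.61 for Spint1, 4.39 for Mgp, 1.56 for the complement gene C3, 3.93 for Cenpf, -1.31 for Zfp36l1, 1.08 for Mgst1 and -1.24 for S100a6.

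Spint1, a protease inhibitor, was at 60.3 and 51.7 CPM in WT and 42.4 and 41.2 CPM in ERG CKO in AMs, and at 5.85 and 7.58 CPM in WT and 40.8 and 25.5 CPM in ERG CKO in the other phagocytes. C3 was at 85.0 and 75.4 CPM in WT and 113 and 100 CPM in ERG CKO in AMs, against 128 and 195 CPM in WT and 74.4 and 74.5 CPM in ERG CKO in the others. Zfp36l1 was at 59.7 and 56.6 CPM in WT and 42.9 and 31.2 CPM in ERG CKO in AMs, and at 229 and 253 CPM in WT and 427 and 356 CPM in ERG CKO in the others. The difference in Mgp was 2.96 without ERG CKO replicate 2, in which 1 AM held 137 of 151 UMIs, and 2.03 without WT replicate 1, whose other phagocytes were at 215 CPM against 15.7 CPM in WT replicate 2. That in S100a6 was -0.80 without WT replicate 1. In the other phagocytes Ube2c was at 45.8 and 8.66 CPM in WT and 2.13 and 3.18 CPM in ERG CKO. Cenpf was at 19.5 and 7.03 CPM there in WT and 0.425 and 1.91 CPM in ERG CKO. The AM values of both genes overlapped. With interstitial macrophages as the comparator, of which WT had 13 and 11 cells, none of the 10 passed. The differences were then 0.50 for Chil3, 0.61 for Lyz2 and 3.69 for C3. Those of 9.60 for Ube2c and 8.93 for Cenpf cannot be read as sizes with so few cells.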

How the results depend on the processing

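The direction of the cycling share and of depth was kept in every alternative run, and that of the AM share in all but 1: leaving out 1 library moved it between -2.42 and 0.32 points, with 0.32 without WT replicate 1. Against 1 gene called higher and 0 lower, the counts were 60 and 57 without a filter on low counts, and 23 and 10 with the replicate block, where same-numbered samples hardly deviated together over all genes (Pearson r = 0.019 over 9107 genes) but shared the presence of Xist or of Ddx3y; no label gives a pairing. With each library left out, 3 to 86 genes were higher and 1 to 79 lower. With 1 library alone in its group, that library is assumed to vary like the others. DESeq2 called 2 higher and 0 lower. With at least 3 selection genes, after thinning to 2000 UMIs and without cycling AMs, 0 genes passed in edgeR either way (550, 232 and 468 at an unadjusted p under 0.05). Leaving out the highest cell of each gene, or keeping cells with excluded transcripts, gave 1 gene lower, S100a6 in both. Genes whose change differed from other mononuclear phagocytes numbered 45, but 107 without a filter, 1 with interstitial macrophages as comparator and 34 to 113 with each library left out. Other settings gave counts within 1.5 times. The cause of these moves was not tested. Of 516 list medians, 39 changed sign.

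With 2 libraries per group, shares cannot reach an exact p under 0.333, and a gene seen in few AMs rests on few UMIs per library, as the 26 of Ccl4 in WT replicate 2.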

Other observations

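Epcam, an epithelial adhesion protein, was chosen after its values were seen. Its detection in AMs was set beside 3 other cell types: 77.5% and 50.9% of WT AMs and 45.9% and 64.5% of ERG CKO AMs held a UMI (median depths 15236 to 17156 UMIs), against 2.42% to 3.84% of T cells, 0.787% to 4.92% of other mononuclear phagocytes and 0.761% to 1.63% of endothelial cells, at median depths of 3922.5 to 7385 UMIs. After thinning to 2000 UMIs the AM shares were 22.5% and 17.3% for WT libraries, with ERG CKO at 8.70% and 23.1%. The groups overlapped.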
